A study of Mus musculus with 23 samples.

Results

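Dppa2, Dppa4, Nelfa and Smarca5 are 4 genes listed as maternal regulators of the 2-cell program, the burst of transcription with which the mouse embryo switches on its own genome. They were picked by gene symbol, with earlier results of these data known, and both deposited count tables hold all 4 among 56196 genes. All 4 passed the filter on low counts in both tables. The study set GV oocytes (fully grown, still with an intact germinal vesicle) and early embryos labelled Eif4enif1+/- (het) against WT ones. Eif4enif1 encodes 4E-T, which binds the cap-binding protein eIF4E and takes part in storing and silencing oocyte mRNA.

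There were 23 libraries. GV oocytes gave a translatome (mRNA bound to ribosomes and captured with RiboLace) and a transcriptome (total mRNA by direct lysis), each with 2 het and 2 WT libraries and with both fractions taken from the same specimens. Embryos gave total mRNA from het 1-cell, WT 1-cell, het 2-cell, WT 2-cell and het arrested 1-cell groups of 3 libraries each; the 2-cell and arrested embryos had been in culture for 24 h and the 1-cell embryos carried no treatment. The labels used here give neither the allele's design nor ages nor the number of oocytes or embryos per library, and they do not say if an embryo's genotype refers to the mother. In such bulk libraries fewer cells of a type and less RNA per cell cannot be told apart, and where nothing shows that libraries came from separate animals, p-values measure only the spread between these libraries.

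Dppa2 and Dppa4 are small nuclear proteins with a SAP domain that bind DNA as a pair; in mouse embryonic stem cells they switch on the transcription factor Dux and, through it, Zscan4 and other 2-cell genes. Nelfa is a subunit of the negative elongation factor NELF, which holds RNA polymerase II paused near promoters, and raised Nelfa drives mouse embryonic stem cells toward a 2-cell-like state. Smarca5 (SNF2H) is the ATPase of ISWI complexes that space nucleosomes, and it acted as an inducer of 2-cell genes in an activation screen in mouse embryonic stem cells.

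In the mm10 build, Dppa4 (chr16:48283733-48294237) and Dppa2 (chr16:48303908-48319723) lie on the plus strand with 9670 bases between them. Nelfa (chr5:33897916-33936413) and Smarca5 (chr8:80698507-80739497) are on the minus strand of other chromosomes. Nelfa shares 60 exon bases with Nsd2 on the opposite strand, and Smarca5 shares 281 with Gm45872 on the same strand, so reads there cannot be assigned with certainty.

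Stored oocyte mRNAs often carry a cytoplasmic polyadenylation element (TTTTAT or TTTTAAT) close to the polyadenylation signal AATAAA, and CPEB, the protein that reads it, is a known partner of 4E-T. The 30 bases around the signal are shown for the pair of genes whose annotated transcripts hold one in their last 100 bases, with the motif letters in capitals (GENCODE M21 transcripts, mm10, minus strand, 3′ UTR; chr5:33897932-33897961 for Nelfa and chr8:80698509-80698538 for Smarca5).
Nelfa: ttaaagttTTTTAATAAAaaaatactcatt
Smarca5: aatgtatcagacAATAAAggaaggatgttg
In Nelfa the element TTTTAAT runs into the signal, which starts 34 bases from the transcript end; in Smarca5 the signal starts 20 bases from the end and neither element is present. Dppa2 and Dppa4 held neither AATAAA nor its common variant ATTAAA in the last 100 bases of the transcript used, and there was no TTTTAT there and no copy of TTTTAAT. Among 21743 transcripts read on the same strand, 61.1% held AATAAA in that window, 18.9% held ATTAAA, 12.8% held TTTTAT and 4.64% held the longer element TTTTAAT. These matches describe letters only.

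Levels below are CPM, counts divided by library size and scaled by TMM within each table, and levels of different genes are set side by side only per kb of exon. In WT GV total mRNA, Dppa2 stood at 68.3 ± 15.8 CPM per kb, Nelfa at 27.1 ± 7.53, Dppa4 at 13.6 ± 3.01 and Smarca5 at 4.71 ± 3.31 (SD, n = 2). All 4 were thus detected before fertilization, as the word maternal in their description requires. In WT 1-cell embryos the levels per kb were 27.5 ± 17.3 for Dppa2, 21.9 ± 3.54 for Smarca5, 10.6 ± 4.55 for Nelfa and 0.890 ± 0.271 for Dppa4 (SD, n = 3). In WT 2-cell embryos Dppa4 led at 316 ± 45.5, followed by Dppa2 at 221 ± 53.7, Smarca5 at 19.9 ± 1.5 and Nelfa at 14.4 ± 3.26 CPM per kb (SD, n = 3). Dppa4, the lowest of the 4 at the 1-cell stage, was the highest at the 2-cell stage.

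**Figure D1:**
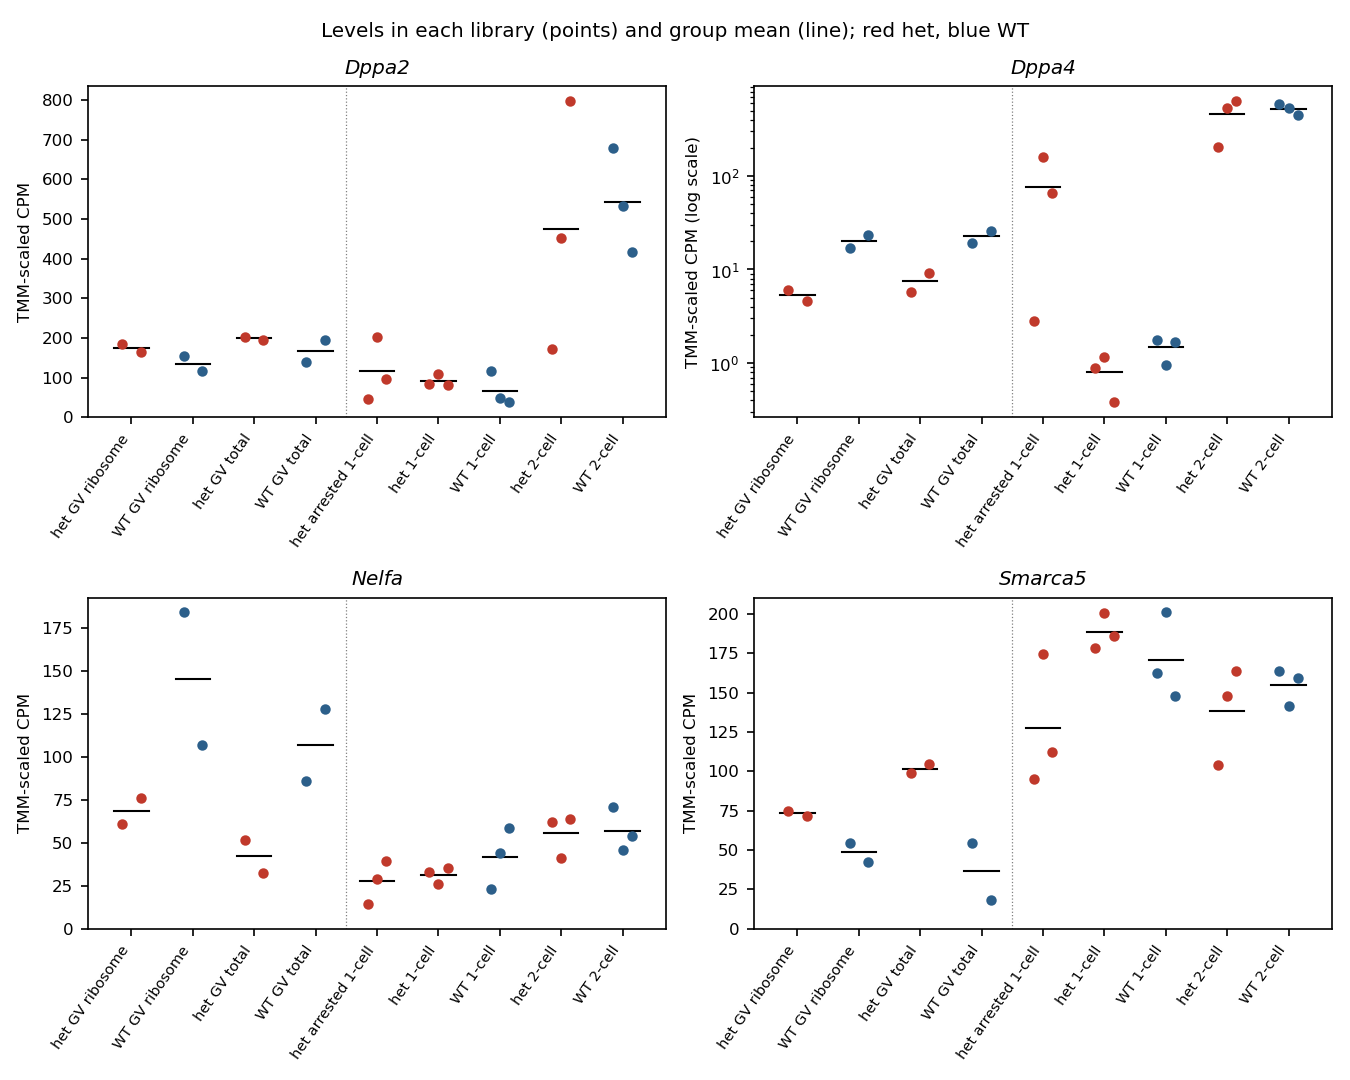
TMM-scaled CPM (vertical axis; log scale for Dppa4 only) of the 4 genes in each library (points) and the group mean (line); red is het, blue is WT, and the dotted line separates the GV table from the embryo table, which were scaled separately. Het points lie below WT points for Dppa4 and Nelfa in both GV fractions, and the 2-cell groups hold the highest Dppa2 and Dppa4.

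Eif4enif1 was lower in every het library than in every WT library in the GV translatome (150 and 97.1 against 312 and 270 CPM), the GV transcriptome (87.3 and 96.1 against 217 and 222 CPM), 1-cell embryos (69.2 to 72.1 against 134 to 178 CPM) and 2-cell embryos (38.2 to 54.9 against 55.3 to 76.3 CPM). The difference passed edgeR's test in both GV fractions but not in 1-cell or 2-cell embryos. Arrested het embryos had 110, 28.5 and 62.7 CPM of Eif4enif1, below every WT 1-cell library. They overlapped WT 2-cell embryos, with arrested library 1 above all of those. Depth ran between 3621103 and 50487687 counts per library, lowest in het GV transcriptome library 1. Het 1-cell libraries 1 and 3 stood apart: their 100 most abundant genes took 6.34% and 5.53% of counts, against 38.1% in het 1-cell library 2 and 32.1% to 37.6% in WT 1-cell embryos, and their summed oocyte markers were 1473 and 1208 CPM, against 7970 CPM in het 1-cell library 2 and 7001 to 8225 CPM in WT 1-cell embryos. Their TMM factors were 2.02 and 2.15, which lowers their CPM, against 0.831 in library 2. The chi-square of count differences per gene, larger when less alike, was 12.1 between them and 356.5 and 447.8 with library 2. SDs and tests of this group count libraries 1 and 3 as separate ones. Tests that use the het 1-cell group are therefore also given without these 2 libraries where a call changes; that leaves 1 het 1-cell library, which is then assumed to vary like the other groups. Arrested library 1 also differed from the other arrested libraries, as described with its group.

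In GV oocytes, Dppa4 was lower in het than in WT in both fractions and Nelfa was lower in total mRNA, while Dppa2 and Smarca5 did not pass the test. Dppa4 had 6.05 and 4.56 CPM in the het translatome, against 16.8 and 23.2 CPM in the WT translatome. In total mRNA Dppa4 had 5.75 and 9.23 CPM in het oocytes, against 19.0 and 26.1 CPM in WT oocytes. The groups did not overlap in either fraction. With 2 libraries against 2, an exact permutation test cannot go below a two-sided p of 0.333. Non-overlap is therefore only a description, for Dppa4 and for the other genes below. The share of all genes whose groups did not overlap was not computed. The translatome difference was -1.90 as a log2 fold change (SE 0.33, adjusted p = 0.00923 by edgeR's quasi-likelihood test with Benjamini-Hochberg adjustment over 22409 genes) and -1.54 in the transcriptome (SE 0.34, edgeR adjusted p = 0.0339). These values correspond to 0.267 and 0.345 of the WT level.

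Nelfa had 51.8 and 32.6 CPM in het total mRNA, against 86.0 and 128 CPM in WT total mRNA. The het translatome held 61.2 and 75.9 CPM of it, against 184 and 107 CPM in the WT translatome. Both het libraries lay below both WT libraries in each fraction. The transcriptome change was -1.36 (SE 0.33, edgeR adjusted p = 0.0485), and that in the translatome, -1.09 (SE 0.32), missed the threshold with an edgeR adjusted p of 0.0729. Thus 1 of the 4 genes passed in the translatome, where 4.61% of all genes did, and 2 passed in the transcriptome, where 2.55% did.

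Smarca5 pointed the other way without passing. It had 98.8 and 105 CPM in het total mRNA, against 54.8 and 18.5 CPM in WT total mRNA, a log2 difference of 1.47 (SE 0.39, edgeR adjusted p = 0.0596). In the translatome it had 75.2 and 71.7 CPM in het oocytes, against 54.5 and 42.5 CPM in WT oocytes, a log2 difference of 0.60 (SE 0.38, edgeR adjusted p = 0.391). Every het library was above every WT library in both fractions. WT transcriptome library 2 was the lowest of all, and the difference depends on which WT library is kept: it was 2.45 without WT transcriptome library 1 (edgeR adjusted p = 0.00425) and 0.92 without WT transcriptome library 2 (edgeR adjusted p = 0.255). DESeq2 called Smarca5 in total mRNA (DESeq2 adjusted p = 0.00452) and Nelfa in the translatome (DESeq2 adjusted p = 0.0198).

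Dppa2, the partner of Dppa4, had 185 and 165 CPM in the het translatome, against 155 and 116 CPM in the WT translatome. In total mRNA it had 202 and 196 CPM in het oocytes, against 139.7 and 194 CPM in WT oocytes. The het libraries were the higher ones in both fractions, by 0.37 (SE 0.26) and 0.25 (SE 0.26) on the log2 scale, with edgeR adjusted p of 0.438 in the translatome and 0.642 in the transcriptome. The ratio of Dppa4 to Dppa2 was lower in every het library than in every WT library. Per kb of exon, Dppa4 stood at 4.81 and 4.07 per 100 of Dppa2 in the het translatome, against 16 and 29.4 in the WT translatome, and at 4.19 and 6.93 in het total mRNA, against 20.1 and 19.8 in WT total mRNA. The ratio is a description: an exact permutation test of 2 libraries against 2 cannot go below a two-sided p of 0.333.

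The calls in GV oocytes rest on few libraries and, in total mRNA, also on settings. Nelfa in total mRNA missed the threshold with RLE size factors (log2 -1.29, edgeR adjusted p = 0.0601). When only the groups compared were fitted, Nelfa (edgeR adjusted p = 0.0632) and Dppa4 (edgeR adjusted p = 0.054) both missed it there. DESeq2 and the fit with no expression filter kept both calls. Dppa4 in the translatome no longer passed without het translatome library 1 (edgeR adjusted p = 0.059) or library 2 (edgeR adjusted p = 0.0894), and neither Dppa4 nor Nelfa passed in the transcriptome without het transcriptome library 1, het transcriptome library 2 or WT transcriptome library 2, where edgeR adjusted p was 0.131, 0.158 and 0.162 for Dppa4 and 0.0663, 0.503 and 0.295 for Nelfa. Summed granulosa and cumulus cell markers (15 genes, led by Inha) were 604 and 904 CPM in the het translatome against 174 and 351 CPM in the WT translatome, and 353 and 255 CPM in het total mRNA against 111 and 189 CPM in WT total mRNA. Most of the translatome sums was Inha. Without it the mean sums were 156.2 CPM in het against 84.15 CPM in WT there. In total mRNA they were 112.8 CPM in het against 81.33 CPM in WT. Mitochondrially encoded genes took 0.657% to 1.32% of counts in het GV libraries, against 0.158% to 0.311% in WT GV libraries. For both measures their part in these differences was not tested. The shares of all genes called moved as well: over fits that leave out 1 library, 154 to 1056 genes were called in the translatome (1034 with all libraries) and 69 to 644 in the transcriptome (572).

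The change between genotypes was not shown to differ between ribosome-bound and total mRNA for any of the 4. The model treated the fractions of a specimen as separate libraries, and a block for the specimen changed no call of the 4 here. The translatome change minus the transcriptome change was 0.12 (SE 0.36) for Dppa2, -0.37 (SE 0.47) for Dppa4, 0.27 (SE 0.46) for Nelfa and -0.88 (SE 0.54) for Smarca5 on the log2 scale, and 0 of 4 passed edgeR's test where 0.0134% of all genes did. No member had an unadjusted p under 0.05 there, and DESeq2 called 0 of the 4. Comparing fractions directly, 0 of 4 passed in het oocytes (8.09% of all genes) and 0 of 4 in WT oocytes (14.6%); DESeq2 also called 0 in each. Nelfa, with the largest differences of the 4 in favour of ribosomes, had log2 differences of translatome minus transcriptome of 0.72 (SE 0.33) in het oocytes and 0.44 (SE 0.32) in WT oocytes. The unadjusted p for Nelfa was 0.0477 in het oocytes, where its edgeR adjusted p was 0.188.

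Genes that work with Nelfa or Smarca5 were examined between genotypes in GV oocytes as well. Of 12 NELF and pausing partners of Nelfa, 1 rose in het total mRNA, where 2.55% of all genes passed, and 0 passed in the translatome, where 4.61% did; 1 of the 12 had an unadjusted p under 0.05 there and DESeq2 called 0. In total mRNA Top2a, a DNA topoisomerase, had a log2 change of 1.14 (SE 0.27, edgeR adjusted p = 0.0444), a call kept under 3 of 9 alternatives. The median log2 change of that list was 0.19 in total mRNA, beside -0.04 over all genes. Of 12 ISWI partners of Smarca5, 1 rose in total mRNA, Smarca1, the other ISWI ATPase, which averaged 2.87 CPM in het oocytes and 0.195 CPM in WT oocytes and kept its call under 8 of 9 alternatives (not without WT transcriptome library 2); the list medians were -0.12 in the translatome and 0.27 in total mRNA.

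Among 20 repressors of the 2-cell program, Pias4, a SUMO ligase, fell in het total mRNA (log2 -1.18, edgeR adjusted p = 0.0499), and in the translatome the demethylase Kdm1a rose (1.74, edgeR adjusted p = 0.0203) while Morc3 fell (-1.02, edgeR adjusted p = 0.0462). The call of Pias4 was kept under 3 of 9 alternatives and lost among others with RLE size factors, that of Kdm1a was kept under 6 and that of Morc3 under 2. So 1 of the 20 passed in total mRNA and 2 in the translatome, where 2.55% and 4.61% of all genes did. Their median was 0.34 in total mRNA and 0.07 in the translatome, beside -0.04 and 0.04 over all genes. Of 3 other Dppa genes, which share the name and not the protein family of the pair, Dppa5a rose in the het translatome to 1380 CPM, against 476 CPM in the WT translatome (log2 1.54, SE 0.41, edgeR adjusted p = 0.0488). That call was kept under 4 of 9 alternatives, and was lost with RLE size factors, when only these groups were fitted, with the replicate block and without het or WT translatome library 1. No 2-cell transcript of the 13 tested passed in either fraction in edgeR's test, with 0 at an unadjusted p under 0.05 in the translatome and 1 in the transcriptome.

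In 1-cell embryos no difference between genotypes passed for any of the 4. Dppa4 was near the limit of counting there: it had 0.884, 1.16 and 0.380 CPM in het embryos (6 to 13 counts a library), against 1.78, 0.962 and 1.70 CPM in WT embryos (15 to 33 counts). The groups overlapped, and the log2 difference was -0.89 (SE 0.94, edgeR adjusted p = 1). Nelfa had 33.2, 25.9 and 35.1 CPM in het embryos, against 23.1, 44.0 and 58.8 CPM in WT embryos, again overlapping. Dppa2 had 83.3, 108 and 82.5 CPM in het embryos, against 116, 47.7 and 38.4 CPM in WT embryos. Smarca5 was the least variable of the 4 at this stage, with 178, 200.5 and 186 CPM in het embryos, against 163, 201 and 148 CPM in WT embryos. Across all genes 0% were called by edgeR, with 889 at an unadjusted p under 0.05, and DESeq2 called 83 genes but none of the 4; no member had an unadjusted p under 0.05. The count over all genes turned on 1 library: without het 1-cell library 2, which leaves the libraries that stood apart, edgeR called 284 genes, of which 2.11% were higher in het, and 0 of the 4. With het 1-cell libraries 1 and 3 left out instead it called 0 genes, with 284 at an unadjusted p under 0.05, and the log2 differences of the 4 kept their signs.

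Set beside the GV oocytes, with no test because the tables were scaled separately, WT Dppa4 stood between 0.962 and 1.78 CPM in 1-cell embryos and at 19.0 and 26.1 CPM in GV total mRNA. WT Dppa2 stood between 38.4 and 116 CPM in 1-cell embryos and at 139.7 and 194 CPM in GV total mRNA. WT Nelfa stood between 23.1 and 58.8 CPM in 1-cell embryos and at 86.0 and 128 CPM in GV total mRNA. Smarca5 was the one member that stood higher in 1-cell embryos, between 148 and 201 CPM in WT, than in WT GV total mRNA, at 54.8 and 18.5 CPM.

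In 2-cell embryos both genotypes held abundant Dppa2 and Dppa4. Dppa4 had 205, 530.4 and 632 CPM in het embryos, against 593, 538 and 443 CPM in WT embryos. Dppa2 had 173, 452 and 798 CPM in het embryos, against 678, 532 and 416 CPM in WT embryos. Het library 1 was the lowest of the 6 for both genes, and the other het libraries reached into or above the WT range. The log2 differences between genotypes were -0.20 (SE 0.83) for Dppa4 and -0.19 (SE 0.6) for Dppa2, both with an edgeR adjusted p of 1, and both turned positive without het library 1, at 0.14 for Dppa4 and 0.20 for Dppa2.

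Nelfa had 62.2, 40.9 and 64 CPM in het 2-cell embryos, against 70.8, 45.6 and 54.0 CPM in WT 2-cell embryos. Smarca5 had 104, 148 and 164 CPM in het 2-cell embryos, against 164, 142 and 159 CPM in WT 2-cell embryos. Both overlapped, with log2 differences of -0.03 (SE 0.43) for Nelfa and -0.16 (SE 0.34) for Smarca5. In all, 0 of the 4 passed where 0.00423% of all genes did, none had an unadjusted p under 0.05, and DESeq2 called 0 of the 4.

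**Figure D2:**
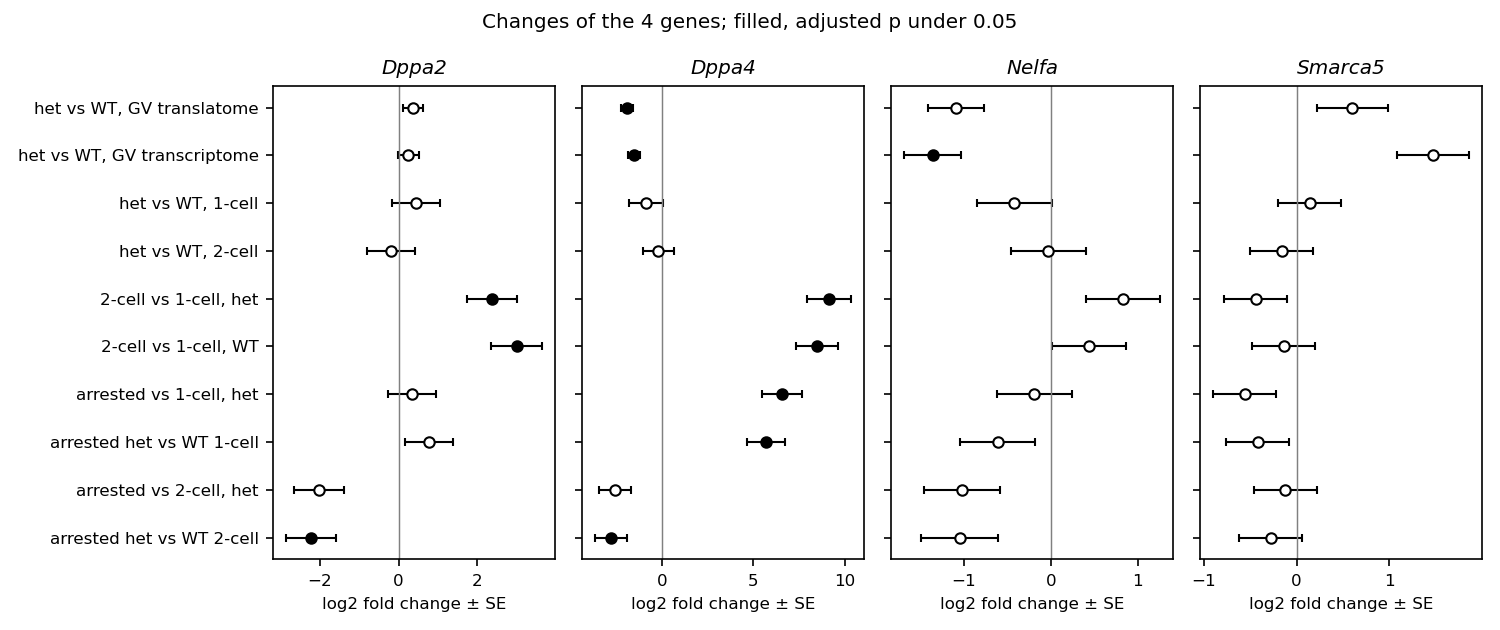
Log2 fold change ± SE from edgeR (horizontal axis, a different range in each panel) of each gene in 10 comparisons, the group named first over the group named second; filled points passed an adjusted p of 0.05. The filled points are Dppa4 in 7 comparisons, Dppa2 in 3 and Nelfa in 1.

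Between the 1-cell and the 2-cell stage Dppa2 and Dppa4 passed edgeR's test in both genotypes. Dppa4 rose to 205 to 632 CPM in het 2-cell embryos, against 0.380 to 1.16 CPM in het 1-cell embryos (log2 9.15, SE 1.20, edgeR adjusted p = 2.17e-04, over 23656 genes). In WT it was 443 to 593 CPM in 2-cell embryos, against 0.962 to 1.78 CPM in 1-cell embryos (log2 8.46, SE 1.15, edgeR adjusted p = 1.35e-04). Dppa2 rose by 2.38 on the log2 scale in het (SE 0.64, edgeR adjusted p = 0.0101) and by 3.01 in WT (SE 0.65, edgeR adjusted p = 0.00216), with every 2-cell library above every 1-cell library of its genotype. In het, 2 of the 4 genes passed where 36.7% of all genes did, and in WT also 2 of 4 where 46.4% did. The median log2 change of all genes was 0.36 in het and 0.59 in WT, and with RLE size factors it stood higher by 0.17 in each. Mitochondrially encoded genes took 13.6% to 19.8% of counts in het 2-cell and 9.23% to 10.2% in WT 2-cell embryos, against 0.336% to 3.68% in het 1-cell and 2.35% to 2.58% in WT 1-cell embryos; their part in these changes was not tested. With het 1-cell libraries 1 and 3 left out, 2017 genes were called in het (7.19%), against 8693 with them.

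Nelfa and Smarca5 did not pass edgeR's test in either genotype, while DESeq2 called Nelfa in het (log2 1.00, DESeq2 adjusted p = 0.0366). Nelfa averaged 55.7 ± 12.9 CPM in het 2-cell embryos and 31.4 ± 4.86 CPM in het 1-cell embryos (log2 0.83, SE 0.43, edgeR adjusted p = 0.14), and 56.8 ± 12.9 CPM in WT 2-cell embryos and 42.0 ± 18.0 CPM in WT 1-cell embryos (log2 0.44, SE 0.43, edgeR adjusted p = 0.414; SD, n = 3). Smarca5 averaged 139 ± 31.1 CPM in het 2-cell embryos and 188 ± 11.2 CPM in het 1-cell embryos (log2 -0.44, SE 0.34), and 155 ± 11.6 CPM in WT 2-cell embryos and 171 ± 27.6 CPM in WT 1-cell embryos (log2 -0.14, SE 0.34; SD, n = 3). For Smarca5 in WT the sign depends on scaling, since RLE size factors gave 0.03.

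The 2-cell minus 1-cell change was not shown to differ between het and WT for any of the 4: the difference was -0.63 (SE 0.86) for Dppa2, 0.69 (SE 1.24) for Dppa4, 0.39 (SE 0.61) for Nelfa and -0.30 (SE 0.48) for Smarca5. By edgeR 0 of 4 passed, where 0.00423% of all genes did, with no unadjusted p under 0.05, and DESeq2 called 0. With het 1-cell libraries 1 and 3 left out, Dppa4 kept its rise in het, while Dppa2 no longer passed (log2 2.00, edgeR adjusted p = 0.221); Dppa2 also missed the threshold without het 2-cell library 3 (log2 1.78, edgeR adjusted p = 0.053).

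The order of the pair was reversed between these stages. Per kb of exon, Dppa4 stood at 117 to 174 per 100 of Dppa2 in het 2-cell embryos, against 0.678 to 1.58 in het 1-cell embryos, and at 129 to 157 in WT 2-cell embryos, against 2.26 to 6.5 in WT 1-cell embryos. No library of one stage reached the range of the other. With 3 libraries against 3, an exact permutation test cannot go below a two-sided p of 0.1, so none was made.

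**Figure D3:**
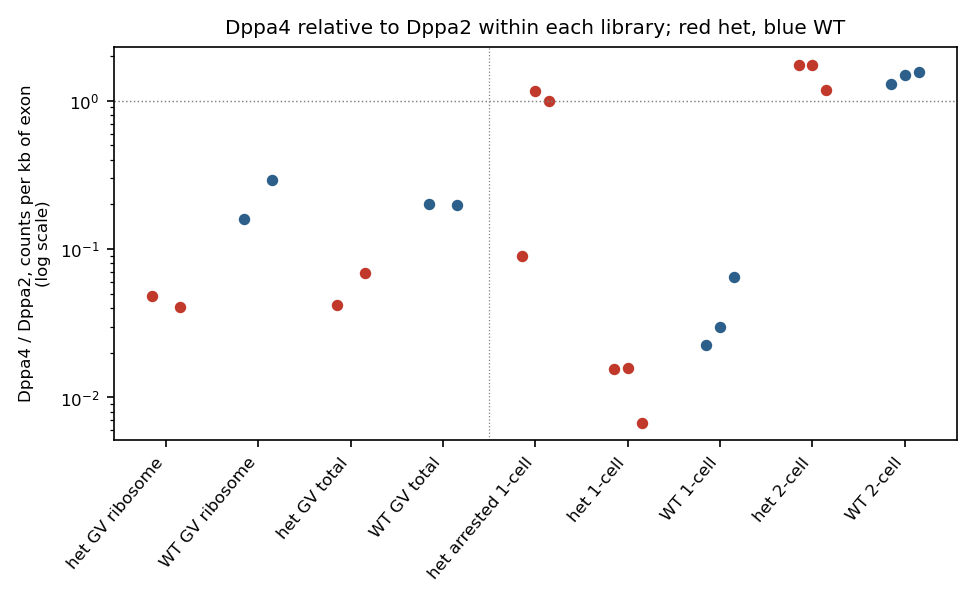
Ratio of Dppa4 to Dppa2 counts per kb of exon within each library (vertical log axis; the dotted horizontal line marks equality); red is het, blue is WT. GV het libraries lie below GV WT libraries, 1-cell libraries lie between 0.00678 and 0.065, all 2-cell libraries are above equality, and arrested library 1 lies apart from arrested libraries 2 and 3.

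Genes downstream of the pair in stem cells were abundant in the same 2-cell libraries. The Zscan4 genes a to f, near-identical copies whose reads were therefore summed, stood at 466 to 2851 CPM in het 2-cell embryos, against 27.5 to 35.8 CPM in het 1-cell embryos, and at 492 to 1323 CPM in WT 2-cell embryos, against 12.8 to 29.8 CPM in WT 1-cell embryos. Zfp352 had 85.7 to 270.3 CPM in het 2-cell embryos and 98.5 to 132 CPM in WT 2-cell embryos, and was at 0 counts in all 6 1-cell libraries. Of 23 listed 2-cell transcripts tested, 19 rose and 0 fell in het, where 36.7% of all genes passed. In WT 18 rose and 1 fell, where 46.4% of all genes passed. These counts take each Zscan4 copy as a separate gene. The median log2 change, with genes at 0 in one group set to a floor of 3 counts over the group, was 6.18 in het and 6.16 in WT. In het fewer of the 23 rose with het 1-cell libraries 1 and 3 left out, which left 1 het 1-cell library and fewer calls over all genes. The one that fell was Tcstv1, at 40.2 CPM in WT 2-cell embryos and 205 CPM in WT 1-cell embryos. Duxf3, the listed Dux copy, had 0.859 to 1.72 CPM in het 2-cell embryos, against 0 to 0.317 CPM in het 1-cell embryos, and 0.793 to 1.46 CPM in WT 2-cell embryos, against 0.192 to 0.771 CPM in WT 1-cell embryos, and did not pass in either genotype. Within het 2-cell embryos, library 1 had the highest Zscan4 sum and the lowest Dppa4 and Dppa2.

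Of the 12 partners of Nelfa, 6 rose and 1 fell in het, where 36.7% of all genes passed, and 6 rose and 0 fell in WT, where 46.4% did, so the count in WT was near the share over all genes. The list medians were 1.21 in het and 2.00 in WT, beside 0.36 and 0.59 over all genes. Without het 1-cell libraries 1 and 3, which left 1 het 1-cell library and fewer calls over all genes, Cdk9 and Hexim1 kept their calls in het. Supt4a and Ccnt1 lost theirs, at log2 changes of 3.82 and 2.01. Cdk9, the kinase that releases paused polymerase, rose by 3.49 (SE 0.63) in het and by 4.48 (SE 0.65) in WT. Supt4a, a subunit of the pausing factor DSIF, rose by 4.18 (SE 0.75) in het and by 4.83 (SE 0.78) in WT. Ccnt1, a cyclin partner of Cdk9, rose by 1.78 (SE 0.49) in het and by 2.97 (SE 0.52) in WT, and Hexim1, an inhibitor of the same kinase, had 0 counts in het 1-cell embryos and 10.1 CPM in het 2-cell embryos.

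Of 11 ISWI partners of Smarca5 tested, 1 rose and 1 fell in het, where 36.7% of all genes passed, and 1 rose and 4 fell in WT, where 46.4% did, with list medians of -0.47 in het and -0.02 in WT. Baz1b, the WICH subunit that pairs with Smarca5, fell, with log2 changes of -3.06 (SE 0.46) in het and -2.03 (SE 0.44) in WT. Chrac1, a histone-fold subunit, rose by 3.25 (SE 1.05) in het and by 5.38 (SE 1.17) in WT; with het 1-cell libraries 1 and 3 left out Baz1b kept its call in het (edgeR adjusted p = 0.025) and Chrac1 lost it (0.228). The 4 that fell in WT include Rbbp7, at 623 CPM in 2-cell embryos and 7859 CPM in 1-cell embryos, a call lost when any 1 of the WT 2-cell libraries was left out. Among the 20 repressors, 2 rose and 1 fell in het, and 5 rose and 3 fell in WT, against the same shares over all genes, with medians of -0.73 and -0.40; Ehmt2, a histone methyltransferase, and Chaf1b, a histone chaperone subunit, rose in both genotypes, Setdb1 fell in het, and in WT Zmym2 rose and Pcgf6 fell. Dppa5a rose by 3.72 (SE 0.60) in het and by 3.77 (SE 0.60) in WT, and Dppa1 fell in both, although its call in het was kept under 2 of 12 alternatives. Ehmt2, Chaf1b, Setdb1, Dppa5a and Dppa1 lost their calls in het with het 1-cell libraries 1 and 3 left out.

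Arrested het 1-cell embryos, which had spent the same 24 h in culture as the 2-cell embryos without dividing, held Dppa4 far above fresh 1-cell embryos. The 3 arrested libraries had 2.83, 160 and 65.9 CPM, against 0.884, 1.16 and 0.380 CPM in het 1-cell embryos and 1.78, 0.962 and 1.70 CPM in WT 1-cell embryos. All 3 were above every fresh library, library 1 by little and the others by far. The log2 change was 6.57 against het 1-cell embryos (SE 1.08, edgeR adjusted p = 0.00262) and 5.68 against WT 1-cell embryos (SE 1.02, edgeR adjusted p = 0.00289). This was the one member of 4 to pass in each comparison, where 13.9% of all genes passed against het 1-cell embryos and 19.5% against WT 1-cell embryos. Without arrested library 1 the Dppa4 changes were 7.15 and 6.19, without arrested library 2 they were 5.40 and 4.45, and with het 1-cell libraries 1 and 3 left out the change against het 1-cell embryos was 5.72 with an edgeR adjusted p of 0.159. In that fit 104 genes were called (0.371%), against 3283 with all libraries. Mitochondrially encoded genes took 15.7% to 17.3% of counts in arrested embryos, against 0.336% to 3.68% in het 1-cell and 2.35% to 2.58% in WT 1-cell embryos, and the 100 most abundant genes took 42.1% to 53.1% of counts, highest in arrested library 1, which also had the fewest genes detected of all embryo libraries, 18025. Their part in these changes was not tested.

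Dppa2 had 46.4, 204 and 97.3 CPM in the arrested libraries, against 83.3, 108 and 82.5 CPM in het 1-cell embryos and 116, 47.7 and 38.4 CPM in WT 1-cell embryos. The arrested libraries lay on both sides of the fresh ones, with log2 differences of 0.34 (SE 0.61) against het and 0.78 (SE 0.61) against WT. Nelfa had 14.4, 28.9 and 39.2 CPM in the arrested libraries, overlapping both fresh groups (log2 -0.19 against het and -0.61 against WT, SE 0.43 each). Smarca5 had 94.9, 175 and 112 CPM, all below het 1-cell embryos (log2 -0.56, SE 0.34, edgeR adjusted p = 0.275) and overlapping WT 1-cell embryos (log2 -0.42, SE 0.34, edgeR adjusted p = 0.405).

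Set beside 2-cell embryos of the same culture time, the arrested embryos held less Dppa2 and Dppa4 than WT 2-cell embryos. Against WT 2-cell embryos (416 to 678 CPM of Dppa2 and 443 to 593 CPM of Dppa4), every arrested library was lower for both genes, with log2 changes of -2.23 for Dppa2 (SE 0.63, edgeR adjusted p = 0.0254) and -2.78 for Dppa4 (SE 0.88, edgeR adjusted p = 0.0398). Those were 2 of the 4, where 18.8% of all genes passed. Nelfa was also lower in all 3 arrested libraries than in the WT 2-cell libraries (45.6 to 70.8 CPM) without passing edgeR's test, at -1.05 (SE 0.44, edgeR adjusted p = 0.102), while DESeq2 called it (log2 -1.22, DESeq2 adjusted p = 0.0158), and Smarca5 overlapped, at -0.28 (SE 0.34). Calls were lost in fits that left out 1 library. Dppa4 missed the threshold without WT 2-cell library 1, 2 or 3 (log2 -2.70, -2.78 and -2.90, edgeR adjusted p of 0.0984, 0.0895 and 0.0644) or arrested library 3 (log2 -2.70, edgeR adjusted p = 0.0959). Dppa2 missed it without WT 2-cell library 1 or 2 (log2 -2.04 and -2.26, edgeR adjusted p of 0.0859 and 0.0652) or arrested library 1 or 3 (log2 -1.86 and -2.13, edgeR adjusted p of 0.0739 and 0.0696). Without arrested library 2 the Dppa4 change was -4.12. Whether fewer libraries or particular ones account for the lost calls was not tested.

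Against het 2-cell embryos 0 of 4 passed edgeR's test, where 8.40% of all genes did, while 3 of the 4 had an unadjusted p under 0.05 and DESeq2 called those 3. That share of all genes rests on single libraries: 1986 genes were called with all libraries, 4 without het 2-cell library 2, 2 without het 2-cell library 3, 3114 without het 2-cell library 1, and 0 when only these groups were fitted, with 2778 at an unadjusted p under 0.05. The log2 changes were -2.03 for Dppa2 (SE 0.63, edgeR adjusted p = 0.0562), -2.58 for Dppa4 (SE 0.88, edgeR adjusted p = 0.0752), -1.02 for Nelfa (SE 0.44, edgeR adjusted p = 0.146) and -0.12 for Smarca5 (SE 0.34, edgeR adjusted p = 0.867). Without het 2-cell library 1, the lowest of its group for the pair, Dppa2 passed (log2 -2.44, edgeR adjusted p = 0.0201). Without arrested library 2 both passed, Dppa2 at -2.88 (edgeR adjusted p = 0.0154) and Dppa4 at -3.90 (edgeR adjusted p = 0.0188).

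The arrested libraries were not alike. Library 1 had Dppa4 at 8.96 per 100 of Dppa2 per kb and a Zscan4 sum of 27.2 CPM, beside 27.5 to 35.8 CPM in het 1-cell and 12.8 to 29.8 CPM in WT 1-cell embryos, and 51 counts of Zfp352. Libraries 2 and 3 had Dppa4 at 116 and 99.8 per 100 of Dppa2 and Zscan4 sums of 3667 and 2161 CPM, against 466 to 2851 CPM in het 2-cell embryos. The Dppa4 level in libraries 2 and 3 was nonetheless below that of every 2-cell library. Summed oocyte markers were 4772, 2050 and 4759 CPM in arrested libraries 1, 2 and 3, against 1197 to 2561 CPM in het 2-cell embryos; their part in the differences was not tested.

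**Figure D4:**
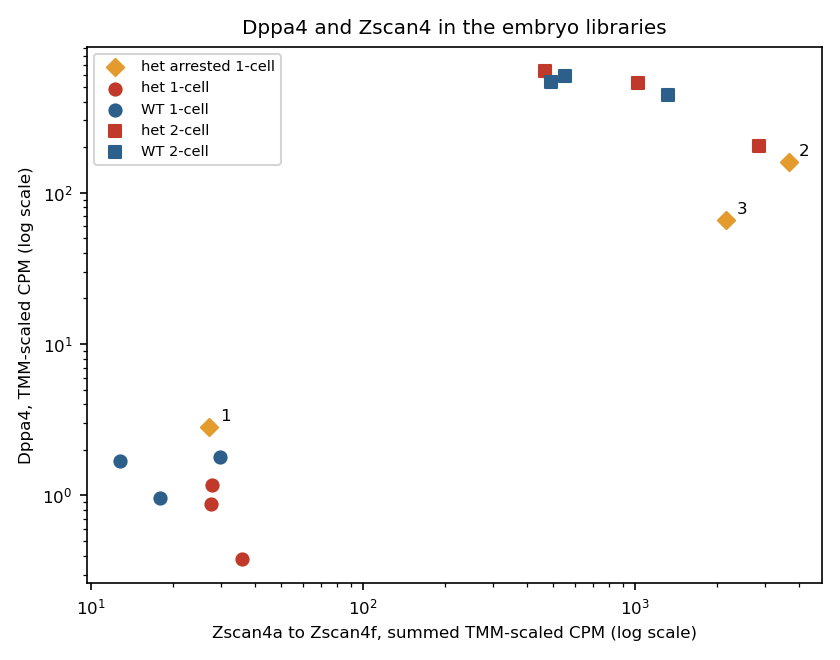
Dppa4 (vertical log axis) against the summed Zscan4a to Zscan4f level (horizontal log axis), both in TMM-scaled CPM, in the 15 embryo libraries; diamonds are arrested embryos with their library number, circles 1-cell and squares 2-cell embryos. Arrested library 1 lies beside the 1-cell libraries, and libraries 2 and 3 lie at high Zscan4 with Dppa4 below all 2-cell libraries.

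As to the gene lists, 18 of 23 2-cell transcripts rose and 0 fell in arrested against het 1-cell embryos, where 13.9% of all genes passed. Against WT 1-cell embryos 17 rose and 0 fell, where 19.5% of all genes passed. The near-identical Zscan4 copies are counted separately here. The medians were 5.62 and 6.60 on the same floor, beside 0.28 and 0.46 over all genes. Leaving out het 1-cell libraries 1 and 3, the calls against het 1-cell embryos were lost. That fit left 1 het 1-cell library, and the share of all genes called fell with them, as given above. Against WT 1-cell embryos as many of the 23 rose as with all libraries. Duxf3 was among those that rose against het 1-cell embryos (log2 4.85, SE 1.31, edgeR adjusted p = 0.0242), at 0.659, 4.79 and 7.34 CPM in the arrested libraries, and kept its call under 7 of 12 alternatives. Against het 2-cell embryos 1 of the 23 passed, Tdpoz3, at 1 count in the arrested libraries and 194 in the 2-cell libraries. Against WT 2-cell embryos Tcstv1 was higher (log2 1.96, edgeR adjusted p = 0.0426) and Tdpoz3 lower (log2 -5.01, edgeR adjusted p = 0.0414). The call of Tcstv1 was kept under 2 of 12 alternatives and that of Tdpoz3 under 3 of 11. Among the partners of Nelfa, 3 of 12 fell against het 2-cell embryos, Cdk9 (log2 -2.26), Ccnt1 (-1.69) and Supt4a (-2.39), and 4 fell against WT 2-cell embryos, where 8.40% and 18.8% of all genes passed. All 3 calls against het 2-cell embryos were lost without het 2-cell library 2 or 3. The medians of that list were -1.27 and -1.47, beside -0.01 and 0.01 over all genes. Among the ISWI partners, Baz1b rose (2.54) and Rbbp4 fell (-1.99) against het 2-cell embryos, both calls again lost without het 2-cell library 2 or 3.

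Smarca5 has a processed pseudogene that the files count separately, Smarca5-ps (chr4:145464204-145467420, plus strand, 1 exon), and reads can be split between near-identical copies. Smarca5-ps rose in het 2-cell embryos to 30.9, 19.0 and 21.9 CPM, against 6.19, 5.02 and 7.35 CPM in het 1-cell embryos (log2 1.95, SE 0.62, edgeR adjusted p = 0.0229). In WT it had 17.9, 18.6 and 25.6 CPM in 2-cell embryos, against 4.25, 4.11 and 5.29 CPM in 1-cell embryos (log2 2.18, SE 0.62, edgeR adjusted p = 0.0108). The stages did not overlap in either genotype, while Smarca5 itself did not pass. The call in WT was kept under all 12 alternatives, and that in het under 8; with het 1-cell libraries 1 and 3 left out the het change was 2.11 with an edgeR adjusted p of 0.219.

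As a share of Smarca5 and Smarca5-ps counts together, the pseudogene took 11.4% to 22.9% in het 2-cell embryos and 9.87% to 13.8% in WT 2-cell embryos, against 1.5% to 3.88% in the GV and 1-cell libraries. The arrested libraries again differed: library 1 had 2.98% (95% Wilson interval 2.11 to 4.2), library 2 had 13.3% (12.3 to 14.4) and library 3 had 17.0% (15.3 to 18.8). These intervals cover counting error only.

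**Figure D5:**
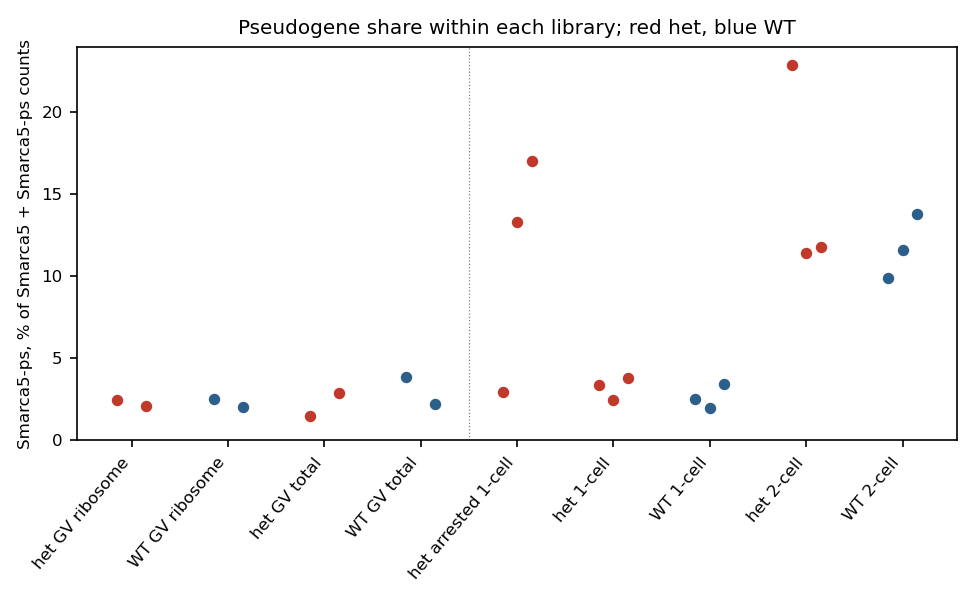
Share of Smarca5-ps in the summed counts of Smarca5 and Smarca5-ps in each library (vertical axis, percent); red is het, blue is WT. The 2-cell libraries and arrested libraries 2 and 3 lie between 9.87% and 22.9%, and all other libraries lie at or below 3.88%.

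By mean level, both genes of the pair were highest in WT 2-cell embryos, followed by het 2-cell and arrested embryos, and the 1-cell groups came last. Dppa2 averaged 116 ± 80.3 CPM in arrested, 474 ± 313 in het 2-cell, 542 ± 131 in WT 2-cell, 91.4 ± 14.7 in het 1-cell and 67.4 ± 42.5 in WT 1-cell embryos (SD, n = 3 in each). No neighbours in that order differed by the test, although the step between arrested and het 2-cell embryos came close, as given above. Dppa4 averaged 76.2 ± 79.0 CPM in arrested, 456 ± 223 in het 2-cell, 525 ± 75.6 in WT 2-cell, 0.810 ± 0.397 in het 1-cell and 1.48 ± 0.450 in WT 1-cell embryos (SD, n = 3 in each). Of its neighbours, arrested and WT 1-cell embryos differed by the test. For Smarca5 no neighbouring groups in the order differed by the test. For Nelfa none of the neighbours that were tested differed. Het 2-cell and WT 1-cell embryos, also neighbours in its order, overlapped and were not compared by a test.

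Across the 15 embryo libraries, which share stages and genotype groups, log2 levels of Dppa2 and Dppa4 had a Pearson r of 0.889 (0.896 over the 13 libraries without het 1-cell 1 and 3). Dppa4 had an r of 0.558 with Nelfa and -0.256 with Smarca5, and Nelfa had 0.107 with Smarca5. Among 7092 genes with at least 10 CPM on average, those most like Dppa4 were Crxos (r = 0.998), Pramel7 (0.996) and Gadd45b (0.996), all near 0 in 1-cell embryos. Crxos averaged 79.1 CPM in arrested, 659 in het 2-cell and 859 in WT 2-cell embryos and had 0 CPM in both 1-cell groups. Genes among those most like Dppa2 were Znrd1 (0.987) and Rpl36 (0.981). Nelfa was most like Troap (0.869), Nsun2 (0.869) and Aqp9 (0.865), and Smarca5 most like Senp5 (0.902), Suclg1 (0.882) and Ftsj3 (0.863). The points share stages and genotype groups, and no correlation within a stage was computed.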

How the data were processed

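Reads of 23 mouse libraries were trimmed, aligned and counted by the authors; the submitters' processing notes name Trim Galore 0.6.4, HISAT2 2.1.0 and featureCounts 1.6.5, and mm10 as the build. No annotation release, strand setting or rule for duplicates or reads with several matches is given in the sources used here. The authors deposited raw counts per gene in one table for GV oocytes and one for embryos, with 3621103 to 50487687 counts per library. Low genes were removed with filterByExpr (22409 GV and 23656 embryo genes kept), each table was scaled by TMM, and one edgeR 4.0.16 quasi-likelihood model with a term per group was fitted to each table in R 4.3.3. Adjustment was by Benjamini-Hochberg across every gene tested, with a threshold of 0.05. Before use the model was run on simulated counts. These had the same dispersion for every gene and no outlying libraries, so they give no error rate for these data. Positions and exon lengths came from GENCODE M21. The 4 genes, the 5 gene lists and the markers were chosen with earlier results of these data known. From each list up to 4 called genes with the smallest p are named, beside single genes that a count of 5 or fewer or a 0 singles out, chosen after their values were seen. The replicate numbers pair the GV fractions, since both come from the same specimen, but the main model had no term for this pairing. The r of deviations over 9075 genes was 0.265 in het and only 0.0492 in WT. Alternatives were RLE size factors, no expression filter, DESeq2 1.42.0, fits of only the groups compared, a replicate block, leaving out each library, and leaving out het 1-cell libraries 1 and 3. Of the genes whose embryo levels were most like those of the 4 genes, 1 is not reported here.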

Additional observations from a re-analysis of the deposited data

How the results depend on the processing

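Of the values recomputed for the 4 genes, 582 kept their direction and their side of the threshold, 26 lost the threshold, 19 gained it and 21 changed sign. The number of the 4 genes called was another one in these fits. With RLE size factors it was 1 (2 in the main analysis) for het against WT in the GV transcriptome and 1 (0) for arrested against het 2-cell embryos. With no expression filter it was 2 (1) in the GV translatome, 3 (2) in the GV transcriptome and 2 (0) for arrested against het 2-cell embryos. With DESeq2 it was 2, 3 and 3 for the same comparisons, and Nelfa made it 3 (2) for het 2-cell against 1-cell and 3 (2) for arrested against WT 2-cell embryos. When only the groups compared were fitted, with fewer samples to estimate the spread, it was 0 in the GV transcriptome, 0 for arrested against het 1-cell and against WT 1-cell embryos (1 each) and 0 for arrested against WT 2-cell embryos (2). With het 1-cell libraries 1 and 3 left out it was 1 (2) for het 2-cell against 1-cell and 0 (1) for arrested against het 1-cell embryos. Over fits that leave out one library it ranged between 0 and 2 in the GV translatome, 0 and 3 in the GV transcriptome, 0 and 1 for translatome against transcriptome in WT, 1 and 2 for het 2-cell against 1-cell, 0 and 2 for arrested against het 2-cell and 0 and 2 for arrested against WT 2-cell embryos. Other causes than fewer samples were not tested.

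Changes of sign were all of values that missed the threshold. Smarca5 in WT 2-cell against 1-cell was 0.03 with RLE size factors and 0.03 with DESeq2; RLE size factors moved the median of all genes by 0.172 there, and by -0.13 and -0.117 for arrested against het 2-cell and WT 2-cell embryos. Nelfa in het against WT 2-cell embryos was 0.03 when only those groups were fitted, and Dppa2 in arrested against het 1-cell embryos was -0.17 with het 1-cell libraries 1 and 3 left out. Leaving out one library gave these ranges of log2 change: in arrested against het 1-cell, Dppa2 -0.36 to 0.73 and Nelfa -0.53 to 0.11; in arrested against het 2-cell, Smarca5 -0.59 to 0.01; in het against WT 2-cell, Dppa2 -0.80 to 0.20, Dppa4 -0.52 to 0.14 and Nelfa -0.17 to 0.16; in the translatome minus transcriptome change, Dppa2 -0.13 to 0.36, Dppa4 -0.59 to 0.05 and Nelfa -0.06 to 0.74; in translatome against transcriptome of WT, Dppa4 -0.42 to 0.07, Nelfa -0.01 to 0.79 and Smarca5 -0.18 to 1.39. Over all genes, leaving out one library gave 1222 to 5938 calls for arrested against het 1-cell (3283 with all), 1940 to 7477 against WT 1-cell (4624) and 1382 to 6419 against WT 2-cell embryos (4455), highest without arrested library 1 in the 1-cell comparisons and without arrested library 2 in the other. Another scaling also moved the balance of calls: 65.7% of genes called between het and WT in the GV transcriptome were higher in het with RLE size factors, against 55.4% in the main analysis.

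With a block on the replicate number, fitted to only these groups, Smarca5 in het against WT GV total mRNA passed at a log2 change of 1.74 (edgeR adjusted p = 0.00182). That fit pairs het and WT libraries by number alone, and their deviations from group means had r = -0.45. The call therefore rests on a pairing that the labels do not give. For comparisons of fractions the block was the specimen. No other of the 4 genes changed its call under a replicate block. Across genotypes and in embryos the samples share only a number, and 5 of 15 embryo libraries correlated best with their own number. Few counts limit Dppa4 in 1-cell embryos (6 to 33 a library, at a level near 1 CPM) and, with the lowest depth, in het GV transcriptome library 1 (23 counts).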

Other observations

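The other cell type markers gave these values. Summed sperm markers lay between 6.84 and 24.2 CPM in GV libraries and between 1.19 and 10.5 CPM in embryo libraries. Summed oviduct markers were 27.7 to 44.3 CPM in the het GV translatome against 7.26 to 13.9 CPM in the WT GV translatome, led by Krt8. Globin genes (Hba-a1 and Hba-a2), which lead the blood list, reached summed list values of 175 to 309 CPM in het 2-cell embryos and 381 to 552 CPM in WT 2-cell embryos, against 0.448 to 3.98 CPM in het 1-cell embryos and 0.0514 to 0.274 CPM in WT 1-cell embryos, and between 7.44 and 400.1 CPM in arrested embryos, where library 1, lowest in Dppa4, was lowest here too. Epcam, which leads the oviduct list in embryos, had a mean of 172 CPM in het 2-cell and 244 CPM in WT 2-cell embryos, against 3.95 CPM in het 1-cell and 2.50 CPM in WT 1-cell embryos. Their part in the results was not tested.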
